A study of Macaca mulatta with 13 samples.

Results

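Transcript levels of the insulin signalling and GLUT4 translocation genes were examined in the vastus lateralis, the large lateral thigh muscle, of aged male rhesus monkeys. Genes were taken from a list of 10, namely INSR, IRS1, IRS2, PIK3R1, AKT1, AKT2, TBC1D4, TBC1D1, SLC2A4 and GRB10, and every probe set whose platform annotation gave 1 of these symbols and no other was used. This gave 19 probe sets for 8 genes, of 14132 genes with such a probe set on the array. No probe set carried INSR or TBC1D4 as its only symbol, so the receptor itself and 1 of the 2 Rab GTPase-activating proteins were not analysed here. There were 8 calorie-restricted (CR) monkeys of 27 to 32 years, and 5 control monkeys of 27 to 30 years on the control diet. The series text gives 18.5 years of restriction at tissue collection in wording that names both groups, and it was read here as the duration in CR. All were males, each gave 1 one-colour Affymetrix array, and ages are known per group only. Neither the strength of the restriction nor a transgene, drug or fasting state is given in the sources used here.

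Insulin binds its receptor on muscle fibres, and the receptor phosphorylates the docking proteins IRS1 and IRS2. These recruit PI3-kinase, which activates AKT, and AKT phosphorylates the Rab GTPase-activating proteins TBC1D4 and TBC1D1, so that vesicles carrying the glucose transporter GLUT4 (gene SLC2A4) fuse with the cell surface. Skeletal muscle takes up most of the glucose that insulin clears from blood, and much of this signalling acts through phosphorylation, which transcript levels do not measure.

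Values below are log2 of the MAS5 signal, the authors' summary of each probe set, and differences are CR minus control. Each array was scaled as a whole and so carries no absolute amounts, and in bulk muscle fewer cells of a type and less RNA per cell cannot be told apart. Of the 14 skeletal muscle markers looked for, 10 had a probe set and all of these were above the brightness limit for testing. The signal of CKM, the muscle creatine kinase, ran from 61450 to 111127 in CR and from 48816 to 96337 in controls. The 10 included the slow-fibre markers TNNT1, TNNI1, MYL2 and MYL3, so their sum also depends on fibre type. The summed signal of the 10 ran from 459771 to 942385 in CR and from 310934 to 804428 in controls, and control replicate 4 was the lowest. That array also had the lowest mean correlation with the other arrays, 0.879, while the remaining arrays lay between 0.900 and 0.922. Its actin 3-prime over 5-prime signal ratio, a sign of RNA degradation, was the highest at 2.41 (log2), with 1.06 to 2.08 in CR and 1.47 to 1.68 in the other controls. Its GAPDH ratio was 0.728, within the 0.476 to 0.906 of CR and the 0.305 to 0.762 of the other controls. It had the highest summed endothelial and smooth muscle markers, 22338 (6 of 7 markers measured, range 4682 to 17762 in CR and 6680 to 22338 in controls). It also had the highest summed fibroblast markers, 82488 (4 of 5 measured, range 28954 to 72862 in CR and 25617 to 82488 in controls). Its adipocyte markers summed to 49560 (5 of 8 measured), the highest among controls, where the range was 9762 to 56037 in CR and 7546 to 49560 in controls. The highest sum was in CR replicate 2. No measured marker of these lists was at 0. The part of these markers in the results below was not tested, and differences without control replicate 4 are given beside the results.

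No member gene passed limma's moderated test between the diets. Of 26383 probe sets tested, 0 (0%) passed a Benjamini-Hochberg adjusted p under 0.05, and of the 18 member probe sets bright enough to be tested 0 passed, with a lowest adjusted p of 0.999. Before adjustment, 4 of those 18 had a p under 0.05, against 641 (2.43%) of all tested probe sets. Of these, 3 belonged to PIK3R1 and lay lower in CR, where 1.18% of all probe sets did, and 1 belonged to IRS2 and lay higher in CR, where 1.25% did. The PIK3R1 probe sets measure 1 gene and are not independent. The count was 1 without control replicate 3 (IRS2) and 1 without control replicate 4 (TBC1D1). Taken over the brightest probe set of each gene, 6 genes were nominally higher and 2 lower in CR, with a median difference of 0.079, beside -0.012 over all tested probe sets. The groups did not overlap for 0 of the 19 member probe sets and for 0.072% of all tested ones.

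**Figure D1:**
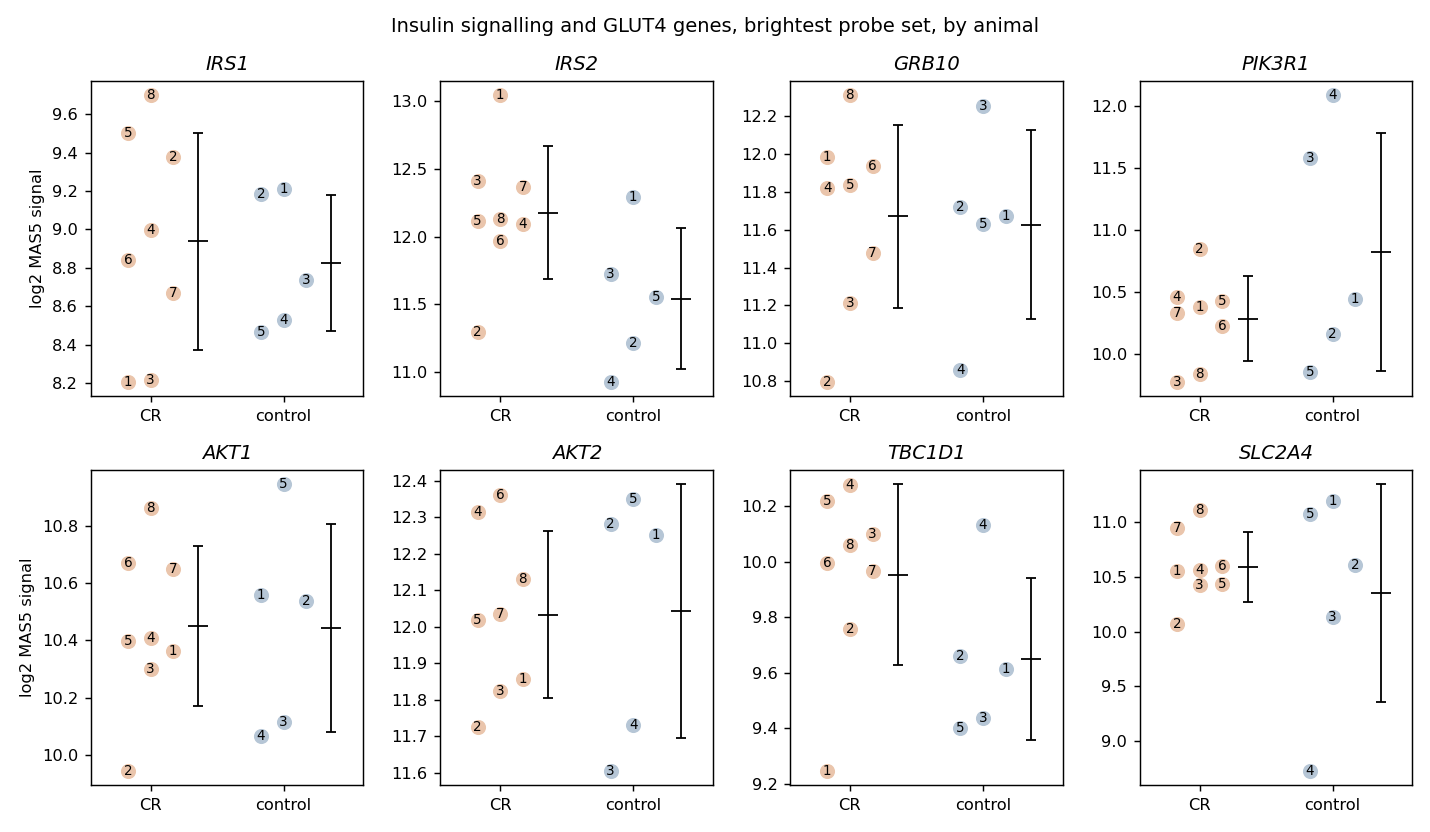
Log2 MAS5 signal (y axis) of the brightest probe set of each member gene in 8 CR and 5 control animals. Numbers are the replicate numbers, and the bar beside each group is its mean ± SD. The groups overlap in every panel, and the low control in the SLC2A4 panel is replicate 4 at 8.73.

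IRS2, a docking protein that links the insulin receptor to PI3-kinase, had a median of 12.12 in CR, with a lowest value of 11.30 in replicate 2 and a highest of 13.04 in replicate 1. The 5 controls had 12.29, 11.22, 11.72, 10.93 and 11.55 for replicates 1 to 5. Of the CR animals 7 of 8 lay above the control mean, but the highest control was above 5 of them. The means were 12.18 ± 0.49 (SD, n = 8) in CR and 11.54 ± 0.52 (SD, n = 5) in controls. The difference was 0.63 ± 0.26 (SE), a 1.55-fold higher signal in CR with a 95% interval of 0.092 to 1.18 before adjustment (limma adjusted p = 0.999). With all 1287 ways of dividing the arrays into groups of these sizes enumerated, the two-sided exact permutation p was 0.0497 before any adjustment. The other IRS2 probe set differed by 0.25 ± 0.26 in the same direction, with 8.93 ± 0.41 (SD, n = 8) in CR and 8.68 ± 0.58 (SD, n = 5) in controls. Leaving out control replicate 4 gave 0.11 and leaving out control replicate 1 gave 0.48, so its size rests on single animals. Across the 24 alternatives and left-out animals the brightest IRS2 difference stayed between 0.44 and 0.82, and it was 0.48 without control replicate 4.

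IRS1, the other docking protein, did not separate the diets. Its brightest probe set averaged 8.94 ± 0.56 (SD, n = 8) in CR and 8.83 ± 0.36 (SD, n = 5) in controls. The CR animals ran from 8.21 to 9.70, a span that held all 5 controls (8.47 to 9.21). The difference was 0.11 ± 0.27 (SE, interval -0.45 to 0.68), and the second probe set differed by -0.025 ± 0.37. Without control replicate 4 these were 0.038 and -0.21. The brightest probe set ran from 0.0043 without CR replicate 8 to 0.22 without CR replicate 1. The 2 IRS1 probe sets followed each other across animals (Pearson r = 0.772, Spearman rho = 0.758, n = 13), so the spread among animals was seen by both.

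GRB10 encodes an adaptor that binds the insulin receptor and inhibits its signalling. Its brightest probe set averaged 11.67 ± 0.48 (SD, n = 8) in CR and 11.63 ± 0.50 (SD, n = 5) in controls, a difference of 0.045 ± 0.25 (SE). The other probe sets differed by -0.13 ± 0.17 and -0.094 ± 0.34, so the sign depended on the probe set and no direction can be given. The low values were 10.80 in CR replicate 2 and 10.86 in control replicate 4, while the other CR animals ran upward to 12.31 and the other controls to 12.26. Without control replicate 4 the 3 differences were -0.15, -0.24 and -0.37.

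PIK3R1, the main regulatory subunit of class I PI3-kinase, was the only member gene with 4 probe sets that all pointed one way by more than 0.5. On the brightest probe set the CR animals had a lowest value of 9.77, a median of 10.35 and a highest of 10.85. The 5 controls had 10.45, 10.16, 11.58, 12.09 and 9.85 for replicates 1 to 5. Control replicates 3 and 4 lay above every CR animal, and the other 3 controls lay within the CR range. The means were 10.28 ± 0.35 (SD, n = 8) in CR and 10.83 ± 0.96 (SD, n = 5) in controls, a difference of -0.54 ± 0.32 (SE, interval -1.22 to 0.14).

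The 3 remaining PIK3R1 probe sets differed by -0.96 ± 0.35, -0.73 ± 0.27 and -0.70 ± 0.30 (SE), and on each of them 8 of 8 CR animals lay below the control mean. On the probe set with the largest difference, MmugDNA.31088.1.S1_at, the CR animals ran from 8.99 to 10.42 with a median of 9.55. Controls there had 9.72, 9.94, 11.33, 11.82 and 9.79 for replicates 1 to 5. The signal in CR was 0.514 times that in controls, with an exact permutation p of 0.0303 before adjustment and a limma adjusted p of 0.999. On MmuSTS.3385.1.S1_at the CR animals ran from 8.52 to 9.73, and controls 3 and 4 were again the highest arrays, at 10.47 and 10.70. On the dimmest probe set the CR animals ran from 6.33 to 8.01, and controls had 8.07, 7.18, 8.17, 8.59 and 8.11 for replicates 1 to 5. There 4 of 5 controls lay above every CR animal, and control replicate 2 lay within the CR range. Without control replicate 4 the 4 differences were -0.23, -0.63, -0.53 and -0.56, in the order of brightness. All 4 kept a value below 0 under every alternative and left-out animal that gave a value for them. The summed skeletal muscle markers of controls 3 and 4 were the lowest among controls, 411721 and 310934, while the other 3 controls lay between 674006 and 804428. The lowest sums in CR were 459771 in replicate 2 and 489819 in replicate 4. These animals had 10.85 and 10.46 on the brightest PIK3R1 probe set. The part of these markers in the PIK3R1 values was not tested.

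**Figure D2:**
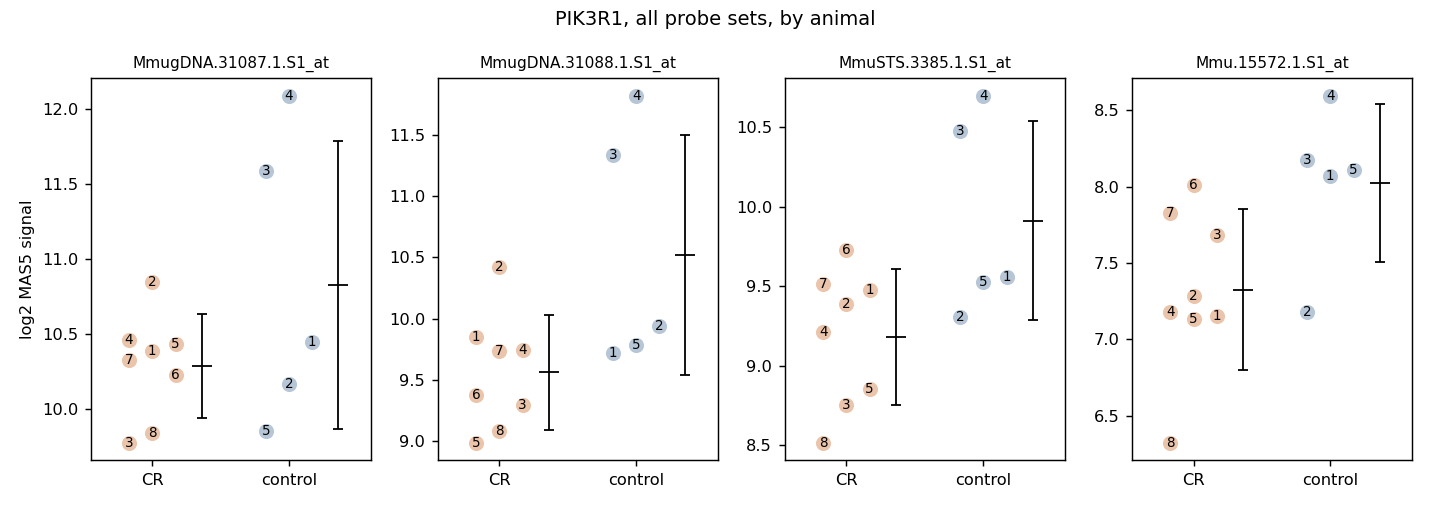
Log2 MAS5 signal (y axis) of the 4 PIK3R1 probe sets in 8 CR and 5 control animals, with replicate numbers as points and the mean ± SD beside each group. Control replicates 3 and 4 are the 2 highest arrays in every panel. The other controls lie within the CR range, except controls 1 and 5 on the dimmest probe set, at 8.07 and 8.11 above the highest CR animal at 8.01.

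Both AKT genes had nearly the same level in the 2 diets. AKT2, the isoform best known for insulin-stimulated glucose uptake in muscle, averaged 12.03 ± 0.23 (SD, n = 8) in CR and 12.04 ± 0.35 (SD, n = 5) in controls on its brightest probe set. The CR animals ran from 11.72 to 12.36 and the controls from 11.61 to 12.35. The difference was -0.010 ± 0.17 (SE), with an interval of -0.36 to 0.34, so that changes of up to about this size are not excluded by these arrays. Its 2 other tested probe sets differed by -0.033 ± 0.28 and -0.13 ± 0.48. The fourth, MmuSTS.1296.1.S1_at, was below the brightness limit and differed by -0.00058 ± 0.62 in the fit without that limit. AKT1, the related kinase, averaged 10.45 ± 0.28 (SD, n = 8) in CR and 10.44 ± 0.36 (SD, n = 5) in controls, a difference of 0.0058 ± 0.18, or -0.025 after median centring. Its dimmer probe set differed by -0.15 ± 0.35. Without control replicate 4 the differences were -0.089 and 0.10 for AKT1, and -0.089, -0.16 and -0.17 for the tested AKT2 probe sets.

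TBC1D1, a Rab GTPase-activating protein that holds GLUT4 vesicles back until AKT or AMPK phosphorylates it, was measured by 1 probe set. The CR animals had a lowest value of 9.25, in replicate 1, a median of 10.03 and a highest of 10.28. The controls had 9.61, 9.66, 9.44, 10.13 and 9.40 for replicates 1 to 5. Control replicate 4 lay among the higher CR animals, while the control mean was exceeded by 7 of 8 CR animals. The means were 9.95 ± 0.33 (SD, n = 8) in CR and 9.65 ± 0.29 (SD, n = 5) in controls. The difference was 0.30 ± 0.19 (SE, 1.23-fold, interval -0.093 to 0.70) and did not pass (limma adjusted p = 0.999, exact permutation p = 0.120 before adjustment). It ran from 0.24 to 0.42 with 1 animal left out, and the highest value was without control replicate 4.

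SLC2A4 encodes GLUT4, the insulin-responsive glucose transporter of muscle and fat, and was also measured by 1 probe set. The CR animals had a lowest value of 10.07, a median of 10.56 and a highest of 11.11. The controls had 11.20, 10.61, 10.14, 8.73 and 11.07 for replicates 1 to 5, so control replicate 4 lay far below every other array. The other 4 controls lay between 10.14 and 11.20, close to the span of the CR animals. The SD was 0.32 in CR (n = 8) and 1.0 in controls (n = 5). The difference of 0.24 ± 0.32 (SE, interval -0.45 to 0.93) had a limma adjusted p of 0.999, and without control replicate 4 it was -0.17.

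**Figure D3:**
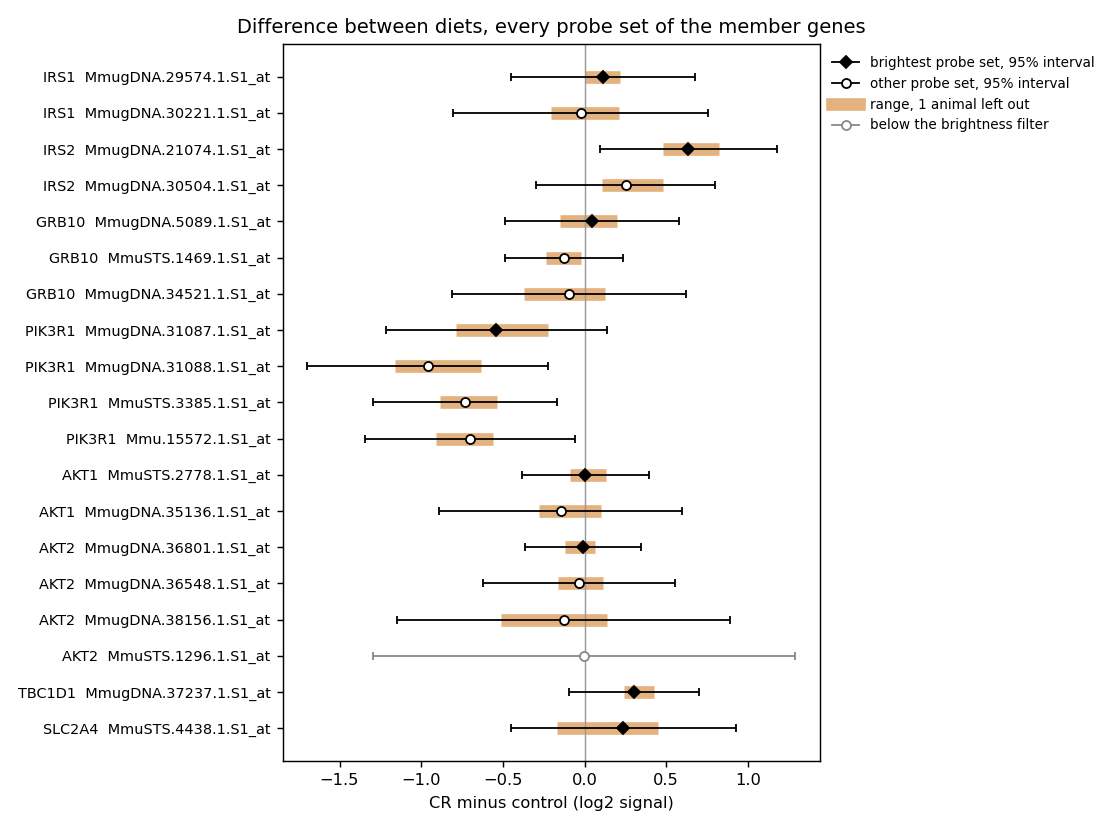
CR minus control difference in log2 signal (x axis) for each of the 19 member probe sets, with 95% intervals before adjustment from limma. The wide bars give the range of the difference with 1 animal left out, which stays below 0 for the 4 PIK3R1 probe sets, stays above 0 for IRS2 and TBC1D1 and crosses 0 for SLC2A4.

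The members were next compared with each other across the 13 animals, as Pearson and Spearman correlations between the brightest probe sets of the 28 pairs of genes. Permutation tests with Benjamini-Hochberg adjustment over those pairs gave 5 pairs by Pearson's r and 3 by Spearman's rho. AKT1, AKT2 and SLC2A4 tended to be high and low in the same animals, and PIK3R1 tended to be high where AKT1 and SLC2A4 were low. These arrays share their scaling and the muscle content of each biopsy, so the values describe how signals vary together over these animals.

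AKT1 and SLC2A4 gave r = 0.769 (permutation p = 0.00058, adjusted 0.0108) and rho = 0.907 (permutation p = 4e-05, adjusted 0.00112). With diet means removed r was 0.782. Without control replicate 5 and CR replicate 2, the arrays farthest from the AKT1 median, it was 0.795 (permutation p = 0.00106, adjusted 0.0297). AKT1 and AKT2 gave r = 0.802 (permutation p = 0.00106, adjusted 0.0108) and rho = 0.846 (permutation p = 0.00042, adjusted 0.00588). Without the same 2 arrays r was 0.740 and the pair did not pass (permutation p = 0.00961, adjusted 0.0897). The 2 kinases are close relatives, and whether their probes share sequence was not checked here. AKT2 and SLC2A4 gave r = 0.640 (permutation p = 0.00817, adjusted 0.0458) and rho = 0.742 (permutation p = 0.0053, adjusted 0.0495). Without control replicate 3 and CR replicate 6 r was 0.685 and the pair did not pass (permutation p = 0.0060, adjusted 0.0840). The AKT1 values hold for 1 of its probe sets only, since the dimmer one did not follow it (r = -0.055, rho = 0.115, n = 13).

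PIK3R1 and SLC2A4 gave r = -0.828 (permutation p = 0.00116, adjusted 0.0108), but rho was -0.549 (permutation p = 0.0550, adjusted 0.308). Without control replicates 3 and 4, the arrays farthest from the PIK3R1 median, r was -0.472 (permutation p = 0.139), so its strength depended in part on them. Among the 8 CR animals alone r was -0.590. Without control replicate 4 only, r was -0.604 (permutation p = 0.0314, adjusted 0.176). PIK3R1 and AKT1 gave r = -0.724 (permutation p = 0.00398, adjusted 0.0279) and rho = -0.637 (permutation p = 0.0217, adjusted 0.152). Without control replicates 3 and 4 r was -0.668 (permutation p = 0.0234, adjusted 0.164). PIK3R1 and AKT2 did not pass, with r = -0.624 (permutation p = 0.0170, adjusted 0.0793). With diet means removed this pair passed, with r = -0.692 (permutation p = 0.00792, adjusted 0.0414), but without control replicates 3 and 4 r was -0.275. Leaving out control replicate 4 left 2 pairs past the adjustment, AKT1 with SLC2A4 (r = 0.879) and AKT1 with AKT2 (r = 0.773). Without control replicate 5 and without CR replicate 8 there were 3 in each case. IRS2, IRS1, GRB10 and TBC1D1 were in none of the pairs that passed. IRS2 with SLC2A4 had r = 0.549 (permutation p = 0.0528, adjusted 0.189) and 0.239 without control replicate 4.

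**Figure D4:**
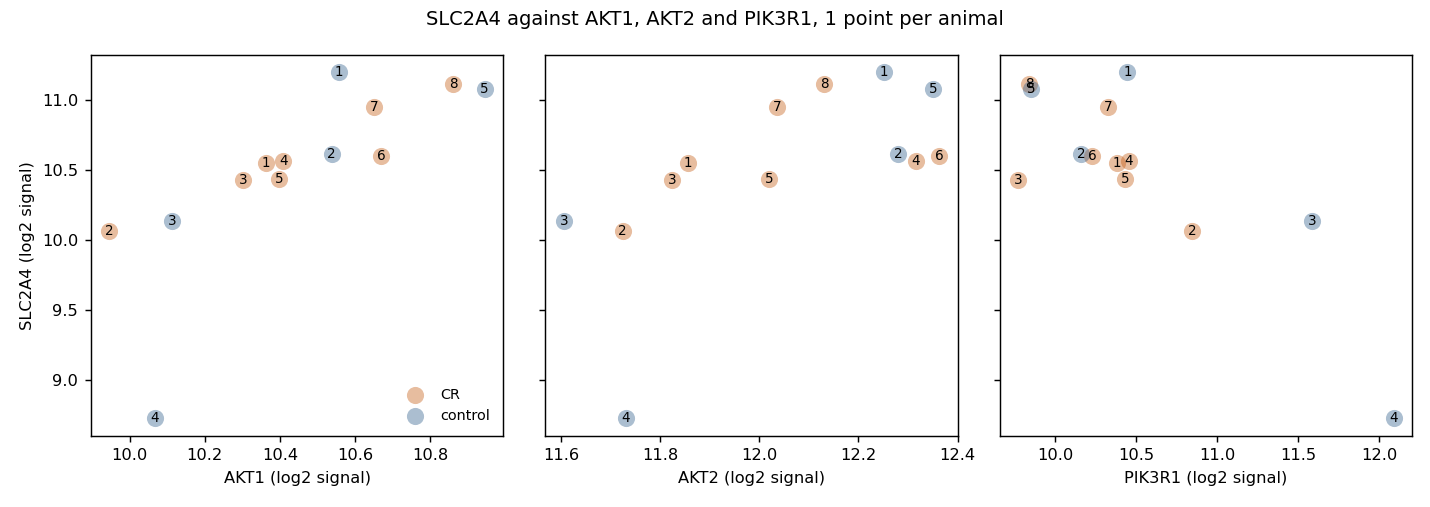
Log2 signal of SLC2A4 (y axis) against AKT1, AKT2 and PIK3R1 (x axes, log2 signal), with 1 numbered point for each of 8 CR and 5 control animals. SLC2A4 is higher where AKT1 is higher in both diets, and in the PIK3R1 panel control replicates 3 and 4 lie far to the right of the rest.

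Probe sets of 1 gene were compared in the same way, over 18 pairs. Pearson's r was above 0 in 16 pairs, and 9 passed the permutation test after adjustment. For PIK3R1 r ran from 0.53 to 0.908 over 6 pairs, for GRB10 from 0.675 to 0.832 over 3 pairs, and for IRS2 it was 0.652. For AKT2 r between the brightest probe set and the others ran from -0.283, for the one below the brightness limit, to 0.593. The agreement among PIK3R1 probe sets depended in part on controls 3 and 4. Without them r over the 6 pairs ran from -0.00031 to 0.704, and the pair with 0.908 had 0.547.

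The genes whose signal over the 13 arrays was most like that of SLC2A4 were sought among 9811 other genes. The 5 with the highest Pearson r were USP2, a deubiquitinating enzyme (0.971), ATP5F1D, a subunit of ATP synthase (0.952), DYRK1B, a protein kinase (0.936), PLAAT1, a phospholipid-modifying enzyme (0.935), and CHCHD10, a mitochondrial protein (0.932). These values are a description of the highest of many and carry no test. Without control replicate 4 they were 0.914 for USP2, 0.863 for ATP5F1D, 0.890 for DYRK1B, 0.776 for PLAAT1 and 0.829 for CHCHD10.

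Other genes of insulin signalling and glucose uptake were read from 8 lists by role, 80 genes in all, of which 58 had a probe set and 55 were tested on their brightest one. None of the 55 passed limma's adjusted test, and 0 had an unadjusted limma p under 0.05, beside 2.43% of all tested probe sets. Of the 55, 31 were nominally higher and 24 lower in CR, with a median difference of 0.028.

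Among 7 tested receptor adaptors and inhibitors, 1 was nominally higher and 6 lower in CR, with a median of -0.11. GRB14, an inhibitor of the insulin receptor related to GRB10, differed by -1.06 ± 0.54 (SE). Its SD was 1.33 in CR (n = 8) and 0.41 in controls (n = 5), and CR replicate 8 had 4.73 while CR replicate 1 had 9.09. The controls lay between 7.54 and 8.52. The summed signal of the slow-fibre markers TNNT1, TNNI1, MYL2 and MYL3 was 11109 in CR replicate 8 and 317879 in CR replicate 1. CR replicate 7, with the highest sum of 338317, had a GRB14 value of 7.98. Control replicate 4, with a sum of 42790, had 7.99. The part of these markers in the GRB14 values was not tested. PTPN1, the phosphatase that dephosphorylates the receptor, had a difference of 0.057 ± 0.15, with -0.57 on a second probe set.

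Of the 5 tested PI3-kinase and lipid phosphatase genes, 2 were nominally higher and 3 lower. The catalytic subunit gene PIK3CB differed by -0.14 ± 0.20 (SE), and PDPK1, the kinase that phosphorylates AKT, by 0.032 ± 0.17. Of 6 AKT regulators 5 were nominally higher. PHLPP2, a phosphatase that inactivates AKT, differed by 0.42 ± 0.22, and PPP2CA, a catalytic subunit of protein phosphatase 2A, by -0.014 ± 0.16. The other PPP2CA probe set differed by 0.17. Of 11 AKT targets 7 were nominally higher and 4 lower. The values were 0.28 ± 0.19 for the mTORC1 component AKT1S1, 0.27 ± 0.20 for the kinase gene RPS6KB1 and 0.37 ± 0.32 for GYS1, muscle glycogen synthase. On the other side they were -0.24 ± 0.28 for the transcription factor FOXO1, -0.11 ± 0.14 for TSC1 and -0.090 ± 0.19 for RPTOR. The second RPTOR probe set differed by 0.094. Further probe sets differed by 0.060 and 0.094 for AKT1S1 and by 0.13 and 0.23 for RPS6KB1.

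Of 10 tested genes of GLUT4 vesicle traffic, 7 were nominally higher and 3 lower in CR, with a median of 0.069. ASPSCR1, whose product TUG retains GLUT4 vesicles inside the cell, had the lowest unadjusted p of all 55. It averaged 9.88 ± 0.13 (SD, n = 8) in CR and 9.60 ± 0.12 (SD, n = 5) in controls, and the control mean was exceeded by 8 of 8 CR animals. The lowest CR animal had 9.75 and the highest control 9.78, so the groups overlapped slightly. Its difference was 0.28 ± 0.13 (SE), with a limma p of 0.0509 before adjustment and a limma adjusted p of 0.999. The exact permutation p was lower, 0.00466 before adjustment. RAB4A, a Rab GTPase of endosomal recycling, differed by 0.46 ± 0.22, with other probe sets from 0.15 to 0.38, and LNPEP, an aminopeptidase carried in GLUT4 vesicles, by 0.22 ± 0.28. PAK1 differed by -0.21 ± 0.26, with other probe sets from -0.49 to 1.43, RALA by -0.14 ± 0.19 and RAC1 by -0.038 ± 0.12, while their other probe sets differed by 0.20 for RALA and 0.093 for RAC1.

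Of 6 AMPK pathway genes 3 were nominally higher and 3 lower. PRKAG3, the AMPK gamma subunit found mainly in glycolytic muscle, differed by 0.82 ± 0.44 (SE), with 13.85 ± 1.12 (SD, n = 8) in CR and 13.02 ± 0.40 (SD, n = 5) in controls. Its lowest value was 11.58 in CR replicate 1 and its highest 15.10 in CR replicate 4, where the slow-fibre markers summed to 317879 and 56787. CR replicate 7, with the highest sum of 338317, had 14.41, and the part of fibre content was not tested. PRKAB1, a beta subunit, differed by -0.22 ± 0.18, and its second probe set by 0.13. The 5 tested genes linked to SLC2A4 transcription had a median of 0.0057, with 0.097 ± 0.16 for HDAC5, whose second probe set differed by 0.33, and -0.25 ± 0.19 for MEF2D, whose other probe sets differed by 0.12 and 0.45. Of the 5 other transporter and hexokinase genes, HK1 differed by 0.25 ± 0.18 and HK2, the insulin-regulated muscle hexokinase, by -0.34 ± 0.28. The other HK1 probe sets differed by 0.18 to 0.30.

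**Figure D5:**
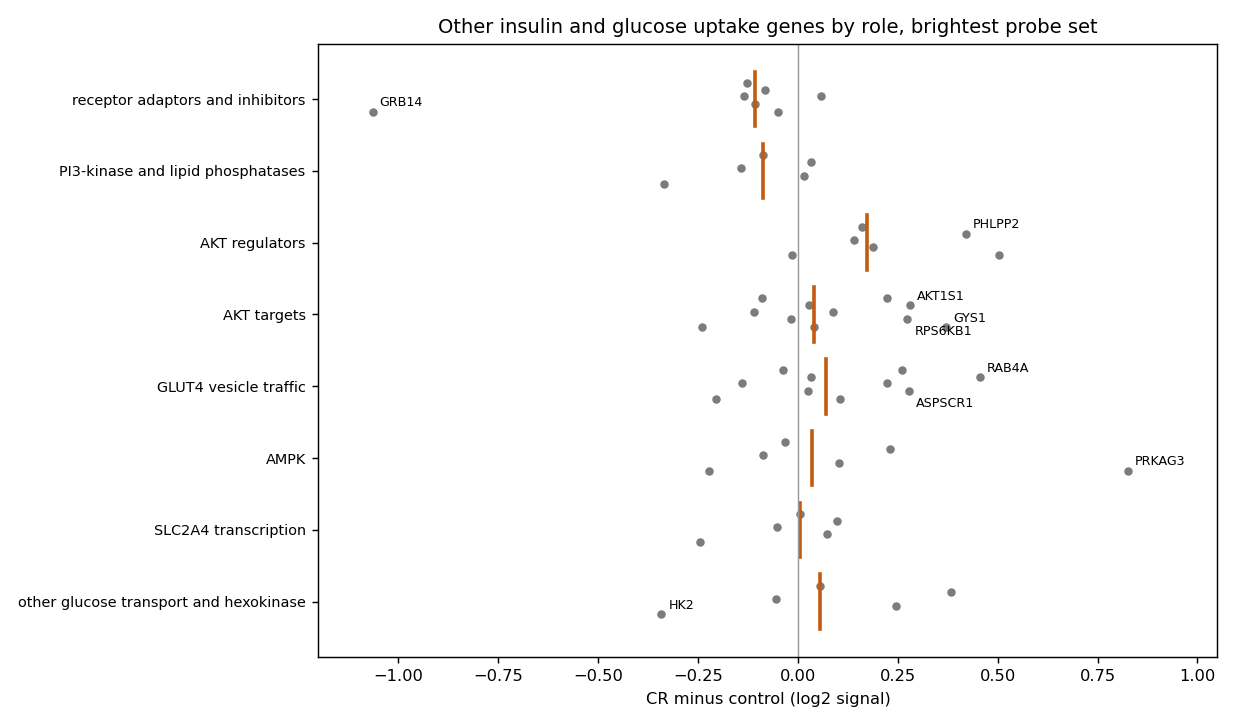
CR minus control difference in log2 signal (x axis) for the brightest probe set of 55 other insulin and glucose uptake genes, by role (y axis). Each point is a gene, the vertical bars are list medians, which lie between -0.11 and 0.17, and some of the genes in the text are labelled.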

How the data were processed

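Per the labels' protocols, RNA from Trizol extracts was made into biotin-labelled cRNA for one-colour hybridisation. Each deposited value is a probe set intensity, and per the submitters' processing notes the authors used MAS5 to make it, with no version given in the sources used here. Arrays had been scaled alike, since their 2% trimmed means all lay at 500.04 to 500.05. Over 13 arrays of 52865 probe sets, 99 controls were removed, signals were floored at 1 (137 values) and log2 transformed, and the dimmer 50% set aside. The 26383 tested probe sets had mean signals of 107 or more. Symbols came from the platform annotation, and 24969 probe sets had 1 symbol. Diets were compared with limma 3.58.1 (lmFit, eBayes with trend, two-sided) in R 4.3.3, adjusted over all 26383. Correlations used 100000 permutations, and figures matplotlib 3.10.9. Tests were run on simulated data with independent noise, which does not show their power on these arrays. Animals are separate per the labels, and no scan batch is given. Members, lists and tests were chosen with earlier results of these data known, so list counts are descriptions. The separate sum of the 4 slow-fibre markers and the pairs of probe sets of 1 gene were added after values were seen. Every member is named, with all its probe sets. Of the other lists, those with the lowest p are named, 3 per direction where 8 or more genes were tested and otherwise 1. Cell type markers were the lists of muscle, adipocyte, endothelial and smooth muscle, fibroblast, macrophage (3 of 4 measured, summed signal 636 to 3394 in CR and 838 to 2485 in controls) and blood genes (3 of 4 measured, 606 to 3949 in CR and 555 to 3899 in controls). Of 3 genes of other tissues only GFAP was measured (321 to 685 in CR and 289 to 569 in controls). The alternatives were median centring or quantile normalization, 16 added to each signal, testing every probe set or the brightest 25%, eBayes with no trend, array weights, 3-prime over 5-prime ratios of GAPDH and actin as covariates, a replicate block, probe sets averaged by gene, an exact permutation test, and leaving out each animal.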

Additional observations from a re-analysis of the deposited data

Results flagged for a closer look

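Among the 19 member probe sets, 38 groups of animals were searched for 1 animal far from the rest of its group, and 2 were found, where chance gives about 1 in 20, or 1.9. On the GRB10 probe set MmugDNA.34521.1.S1_at CR replicate 2 was the lowest CR animal at a log2 signal of 7.14, with the next at 8.56. On the dim AKT2 probe set MmuSTS.1296.1.S1_at CR replicate 3 was the highest CR animal at 7.32, with the next at 5.27.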

How the results depend on the processing

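No member probe set and none of the other pathway genes passed limma's adjusted test under any alternative or with any animal left out. Over all probe sets the count higher in CR was 0 to 1 with 1 animal left out, and 1 without control replicate 1 and without control replicate 5. The count at an unadjusted p under 0.05 over all tested probe sets was 1783 without the filter, 260 in the brightest 25%, 389 with the replicate block, 969 without control replicate 5 and 1226 without CR replicate 2, and among members it ran from 1 to 5. IRS2, TBC1D1 and PIK3R1 kept their sign under each alternative that gave a value, and so did the brightest IRS1 probe set. The GRB10 probe set MmuSTS.1469.1.S1_at also kept its sign, from -0.24 to -0.021 with an animal left out. The following differences changed sign under some settings, among them small ones and the 0.24 of SLC2A4. AKT1 was -0.025 with median centring, -0.036 with array weights, -0.11 with the GAPDH and actin ratios, -0.16 with the replicate block, -0.070 as the mean of its probe sets, and -0.089 to 0.13 with an animal left out. Its dimmer probe set was 0.0072 with array weights and -0.28 to 0.10 with an animal left out. GRB10 was -0.013 with array weights, -0.097 with the replicate block, -0.058 as the mean of its probe sets, and -0.15 to 0.20 with an animal left out. Its dimmest probe set ran from -0.37 to 0.13. The dimmer IRS1 probe set was 0.0066 after quantile normalization, 0.13 with the ratios, and -0.21 to 0.21 with an animal left out. AKT2 ran from -0.12 to 0.066 with an animal left out. Its further tested probe sets ran from -0.16 to 0.11, with 0.019 under the ratios, and from -0.51 to 0.14. SLC2A4 ran from -0.17 to 0.45 with an animal left out. The cause of these changes was not tested.

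The number of correlated pairs was 1 without the 2 farthest arrays, 6 on deviations from diet means, 5 after quantile normalization and 2 to 6 with an animal left out. Replicate numbers showed no sign of pairing the animals. Same-numbered arrays had deviations with r from -0.20 to 0.020, and 0 of the 5 controls correlated best with its own number. A pairing with a small effect could be missed by this check. The replicate block gave 0 calls. CR replicates 6 to 8 have no control of their number. The median half-width of a 95% interval was 0.55 on the log2 scale, so smaller differences, and larger ones after adjustment, could be missed.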
